A study of Mus musculus with 11 samples.

Results

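The endoplasmic reticulum folding genes described here are Hspa5, Hsp90b1, Dnajb11, Calr, Canx, P4hb, Pdia3, Pdia4, Pdia6 and Erp29, 10 of the 32285 genes in the deposited single-cell count matrices of mouse brain. They were taken by gene symbol, their unique molecular identifiers (UMIs, each standing for 1 captured transcript) were summed per library and cell type, and the sums were compared over the groups. The list was selected on these same libraries, with the levels of the genes in the group comparisons already known, so that the counts of called genes below describe the libraries and are no independent evidence of a direction.

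The 11 libraries, each from 1 mouse, covered 2 genotypes and 2 operations: sham + WT (3 libraries), MCAO/R + WT (2), sham + Lrg1-/- (3) and MCAO/R + Lrg1-/- (3). MCAO/R is transient middle cerebral artery occlusion of 1 hour followed by reperfusion, a model of ischaemic stroke, and in sham animals the suture was not advanced into the internal carotid artery. Lrg1 encodes leucine-rich alpha-2-glycoprotein 1, a secreted protein, and the Lrg1-/- line is a conventional knockout, so that Lrg1 was missing from all cells of the animal and not from 1 cell type. Right brain tissue was dissociated and red blood cells were lysed before 10x Genomics capture. WT animals were male C57BL/6 mice of 8 to 10 weeks. Lrg1-/- animals were 3 months old on a C57BL/6N background, backcrossed for 4 generations, and the published methods do not state their sex. Genotype therefore cannot be told apart from age, source, the processing of each line and possible differences in sex and substrain.

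Proteins that are secreted or sit in membranes fold in the endoplasmic reticulum. Hspa5 (also called BiP or GRP78) is its Hsp70 chaperone, Dnajb11 is a J-domain partner of Hspa5, and Hsp90b1 (GRP94) is its Hsp90 chaperone. Calr (calreticulin) and Canx (calnexin) bind newly made glycoproteins through their trimmed sugars, and Pdia3 (ERp57) works with both on disulphide bonds. P4hb (protein disulphide isomerase), Pdia4 and Pdia6 form and rearrange disulphide bonds, while Erp29 has the same fold but lacks the active cysteine pair. When unfolded proteins build up, the sensors Atf6, Ern1 (IRE1) and Eif2ak3 (PERK) start the unfolded protein response, in which cleaved Atf6 and spliced Xbp1 switch on genes of this kind through the endoplasmic reticulum stress element (ERSE).

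The promoters of the folding genes are shown because the ERSE is the sequence through which these genes are known to be induced together. RefSeq promoter windows (250 bases before to 50 after the annotated start, GRCm38.p6) were found for 9 of the 10 genes and not for Erp29. The ERSE letters, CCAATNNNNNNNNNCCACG, read on both strands, occurred in 5 of these 9 windows, against 39 of all 32851 windows (0.119%). The shorter ERSE-II motif, the capitals shown for Dnajb11 with any base between them, occurred in 1 of 9 windows, that of Dnajb11, against 12 of 32851 (0.0365%). Capitals below mark the fixed letters of the motif, and lower case marks the spacer and the flanks, written 5′ to 3′ on the strand of the gene. The windows of P4hb, Pdia3 and Pdia4 held neither motif.
Hspa5: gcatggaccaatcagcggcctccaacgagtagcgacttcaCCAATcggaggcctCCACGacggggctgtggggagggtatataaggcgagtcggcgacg
Hsp90b1: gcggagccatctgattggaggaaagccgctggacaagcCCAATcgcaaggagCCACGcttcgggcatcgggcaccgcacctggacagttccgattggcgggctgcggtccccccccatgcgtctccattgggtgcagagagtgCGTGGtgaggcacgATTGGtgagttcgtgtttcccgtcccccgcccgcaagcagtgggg
Calr: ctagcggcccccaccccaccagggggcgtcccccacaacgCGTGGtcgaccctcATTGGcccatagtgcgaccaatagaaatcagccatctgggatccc
Canx: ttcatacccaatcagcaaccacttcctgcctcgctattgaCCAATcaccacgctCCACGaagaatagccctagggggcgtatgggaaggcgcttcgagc
Pdia6: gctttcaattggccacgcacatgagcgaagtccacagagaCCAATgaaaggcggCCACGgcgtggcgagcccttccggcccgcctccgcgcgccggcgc
Dnajb11: ATTGGcCCACG

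These stretches lie at chr2:34771985-34772083 (+) for Hspa5, chr10:86705493-86705694 (-) for Hsp90b1, chr8:84847035-84847133 (-) for Calr, chr11:50325760-50325858 (-) for Canx, chr12:17266451-17266549 (+) for Pdia6 and chr16:22857852-22857862 (+) for Dnajb11. The ERSE began 65 bases before the start of Hspa5, 98 before that of Pdia6 and 145 before that of Canx. In Calr it lay on the opposite strand 162 bases before the start, and Hsp90b1 held it 212 bases before the start and, on the opposite strand, 107 bases before it. A match is a description of the letters and was not read as a bound site. The ERSE was chosen as a motif known for these genes, so that its share among them is no independent test.

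After limits on cells (over 500 genes, over 1000 UMIs, under 25% mitochondrial UMIs) and removal of 6854 doublets, 125583 cells were kept, of which 105369 were named in 16 cell types from marker genes and 13 types had enough cells for a comparison. The 20214 cells of unnamed clusters entered no comparison, and 17965 of them were from MCAO/R + Lrg1-/- libraries, where they made up 11.9 to 47.2% of the cells of a library, against 0.812 to 11.1% in the WT libraries. In each of the 131 library and cell type sums of these 13 types the type's own markers had the highest summed level among the types, red blood cells left out. The clusters were named from these same markers, so that this is no independent check of the names. Marker scores are mean log2 ratios to the median cluster. The pericyte cluster scored 6.15 for pericyte and 3.94 for fibroblast-like markers, with Dcn of the latter among its leading genes. The T cell cluster scored 6.12 for T cell and 4.79 for natural killer markers, with Gzma and Nkg7 of the latter among its leading genes. Neither fibroblast-like nor natural killer cells were named, so that both may be in these sums. The class named red blood cells is left out of the levels and comparisons: in all sham + WT libraries and in MCAO/R + WT replicate 1 it held at most 852 haemoglobin counts per 1000000 UMIs (CPM) and a higher level of microglial markers than the microglial cells did. Libraries held 37159497 to 171813031 UMIs. Lrg1 had 0 UMIs in all 6 Lrg1-/- libraries, 178 to 651 in sham + WT, and 16903 and 15689 in MCAO/R + WT. The genotypes also differed in other RNA. Over the 13 types, haemoglobin transcripts made up 5.62 to 1582 CPM in WT sums and 1813 to 92462 in Lrg1-/- sums, and the choroid plexus transcripts Ttr, Enpp2, Ecrg4 and Kl made up 107 to 5662 in WT and 2420 to 54341 in Lrg1-/- sums of other types. In sums over cells, fewer expressing cells and less RNA per cell cannot be told apart, and the levels of single cells were not compared here.

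In sham + WT brain the folding genes did not share 1 order of cell types. Levels are CPM of plain totals in a cell type, as mean ± SD of 3 libraries, as a description with no test. They cover the 13 named types with at least 20 cells in each sham + WT library, which include B cells, not compared between groups, and leave out neutrophils. Hspa5 was highest in microglial cells (1768 ± 280) and macrophages (1592 ± 201), whose libraries overlapped, and lowest in oligodendrocytes (273 ± 37.0). A B cell library (B cells 1015 ± 713) reached 1830, within the range of the microglial libraries. Choroid plexus epithelial cells, which secrete cerebrospinal fluid proteins, were at the top for Hsp90b1 (828 ± 85.6), Dnajb11 (101 ± 7.21), Calr (539 ± 48.7), Pdia3 (425 ± 12.2) and Pdia6 (307 ± 6.33), and for Calr all their libraries lay above those of microglial cells, the next type (376 ± 10.7). For Dnajb11 and Hsp90b1 the choroid plexus libraries overlapped those of B cells, which reached 1058 for Hsp90b1 (513 ± 473).

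The remaining genes had other leading types. Pdia4 was highest in ciliated ependymal cells (185 ± 8.11), above every library of the choroid plexus epithelial cells (84.7 ± 2.64), and was at 21.4 ± 2.98 in vascular smooth muscle cells. Canx (274 ± 15.9) and P4hb (101 ± 3.88) had their highest means in oligodendrocytes, where Hspa5 was lowest. Microglial cells came next for Canx (256 ± 8.02), and their libraries overlapped those of oligodendrocytes. Macrophages came next for P4hb (96.3 ± 2.03), and their highest library (97.78) lay just under the lowest oligodendrocyte library (97.82). A pericyte library reached 112 for P4hb, above the highest oligodendrocyte library (105.5). Erp29 was highest in microglial cells (262 ± 12.6) and macrophages (257 ± 15.2), which overlapped, and stood between 80.3 and 116 in the mean of each other type but B cells (211 ± 9.90).

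**Figure D1:**
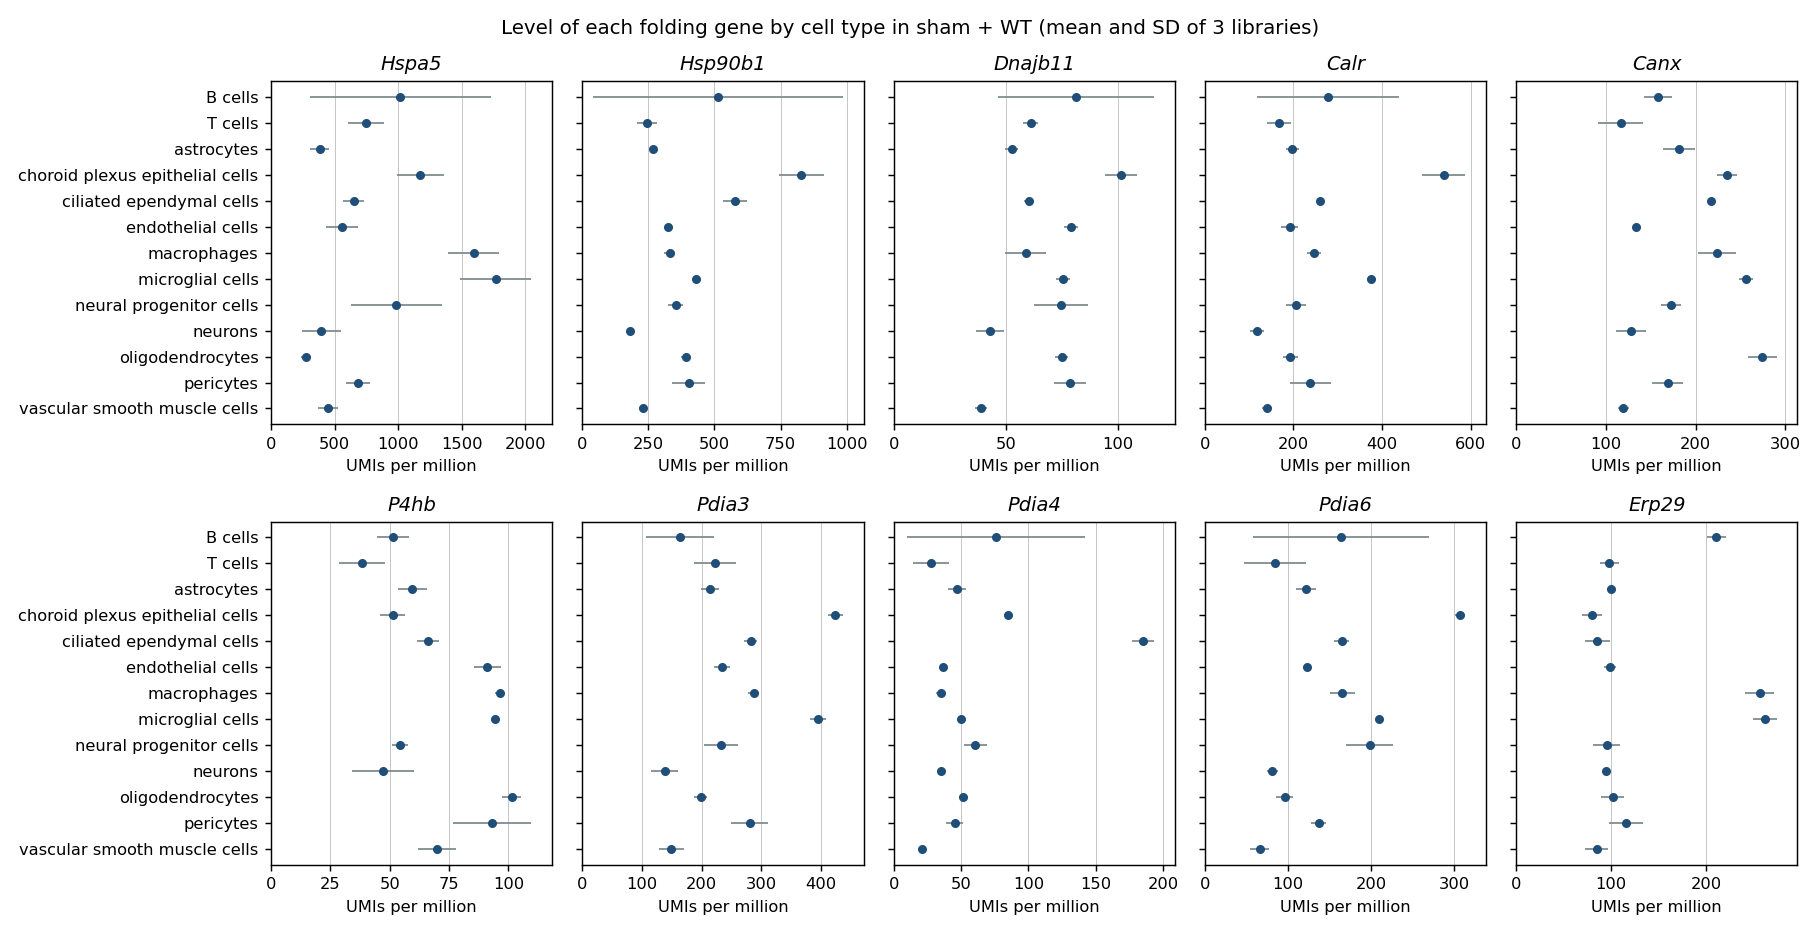
Level of each folding gene in 13 cell types of sham + WT brain, B cells among them and neutrophils not, in CPM of plain totals on linear axes that start at 0; points are means and bars SD of 3 libraries. Choroid plexus epithelial cells lead for 5 genes, microglial cells for Hspa5 and Erp29, ciliated ependymal cells for Pdia4 and oligodendrocytes for Canx and P4hb.

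The comparison of MCAO/R + Lrg1-/- with MCAO/R + WT asked how the genotypes differed after stroke. Folding genes were higher in Lrg1-/- in vascular, immune, glial, neuronal and ventricular cells, and in no cell type was a folding gene called lower. Calr was the most widespread, called in 10 of 12 cell types with a median log2 fold change of 1.68, followed by Pdia6 and Erp29 in 9 types each (medians 1.19 and 1.07), Pdia4 in 7 (0.83) and Dnajb11 in 6 (0.69). Pdia3 was called in 5 types, Hsp90b1 in 4, Canx and P4hb in 2 each, and Hspa5, the Hsp70 chaperone itself, in oligodendrocytes alone. Called means an adjusted p under 0.05 by edgeR's quasi-likelihood test over all genes of the cell type and a fold change past 0.25 on the natural log scale.

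In all, 55 of 120 gene and cell type pairs were called higher and 0 lower, where 8.09% of all 162659 pairs of the whole table were called higher and 7.34% lower. For the 0 called lower, DESeq2 also called 0, and 87 pairs of either direction had an unadjusted p under 0.05 in edgeR. In the single types 12.1% (neutrophils) to 42.2% (macrophages) of all genes had such a p. The median log2 fold change of the 120 pairs was 0.69, while the median of all genes lay between -0.02 and 0.06 in each type, and in 91 pairs every MCAO/R + Lrg1-/- library lay above every MCAO/R + WT library, against 2 pairs the other way round. Of all pairs of the whole table, 23.1% lay apart in the first direction and 23.8% in the second. The count rested on MCAO/R + WT replicate 2: without it 20 pairs were called, with the remaining MCAO/R + WT library assumed to vary like the other groups. Without replicate 1 of that group 38 were called. With every cell thinned to 1000 UMIs, 33 pairs were called and 0 lower, and without a filter on low counts 1 pair was called lower, in neural progenitor cells.

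Microglial cells, the resident immune cells of the brain, had 8 of 10 folding genes higher in MCAO/R + Lrg1-/- (11.5% of all genes were). From here the CPM of single genes are after TMM scaling, which adjusts library totals. Calr stood at 406, 415 and 385 in sham + WT, 387 and 220 in MCAO/R + WT, 417, 429 and 364 in sham + Lrg1-/-, and 1004, 1033 and 916 in MCAO/R + Lrg1-/-. The 3 operated Lrg1-/- libraries stood apart from all 8 others, which overlapped among groups except that MCAO/R + WT replicate 2 was the lowest of all. The log2 fold change between operated genotypes was 1.70 ± 0.19 (SE), adjusted p = 5.3e-05 by edgeR, and it lay between 1.32 and 2.16 over all alternatives run.

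The protein disulphide isomerases of microglial cells followed the same grouping. Pdia6 was at 231 and 130 CPM in MCAO/R + WT and at 375, 475 and 385 in MCAO/R + Lrg1-/- (log2 fold change 1.19 ± 0.20, edgeR adjusted p = 0.00087). Pdia4 was at 51.9 and 30.1 against 117, 94.5 and 70.4 (1.18 ± 0.24, edgeR adjusted p = 0.0034). Pdia3, the partner of calreticulin, was at 405 and 253 against 641, 673 and 547 (0.91 ± 0.17, edgeR adjusted p = 0.0018). In these 3 genes, as for Calr, MCAO/R + WT replicate 2 was the lowest library and no operated Lrg1-/- library overlapped an operated WT library. P4hb, at 177 and 119 against 224, 247 and 242, and Erp29, at 275 and 201 against 387, 490 and 488, were also called (log2 fold changes 0.69 and 0.94).

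Of the chaperones, Hsp90b1 was at 447 and 300 CPM against 702, 779 and 553 in microglial cells (log2 fold change 0.86 ± 0.18, edgeR adjusted p = 0.0036) and Dnajb11 at 114 and 63.3 against 140, 178 and 144 (0.80 ± 0.20, adjusted p = 0.010). Hspa5 was at 2109 and 1809 in MCAO/R + WT and at 2558, 3325 and 1624 in MCAO/R + Lrg1-/-, and these ranges overlapped (log2 fold change 0.35 ± 0.24, edgeR adjusted p = 0.32). Canx was at 272 and 214 against 305, 302 and 281 and was not called (0.29 ± 0.12, adjusted p = 0.11). Without MCAO/R + WT replicate 2, 4 of the 10 genes were called in microglial cells, and with cells thinned to 1000 UMIs 8 were. Beside the named microglial cells, 5 sub-clusters of 3479 cells in all stayed unnamed, among them 2491 cells of MCAO/R + Lrg1-/- (5611 named) and 978 of MCAO/R + WT (7415 named). With these cells added, a choice made after seeing the data, 9 genes were called and the log2 fold change of Calr was 1.93.

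**Figure D2:**
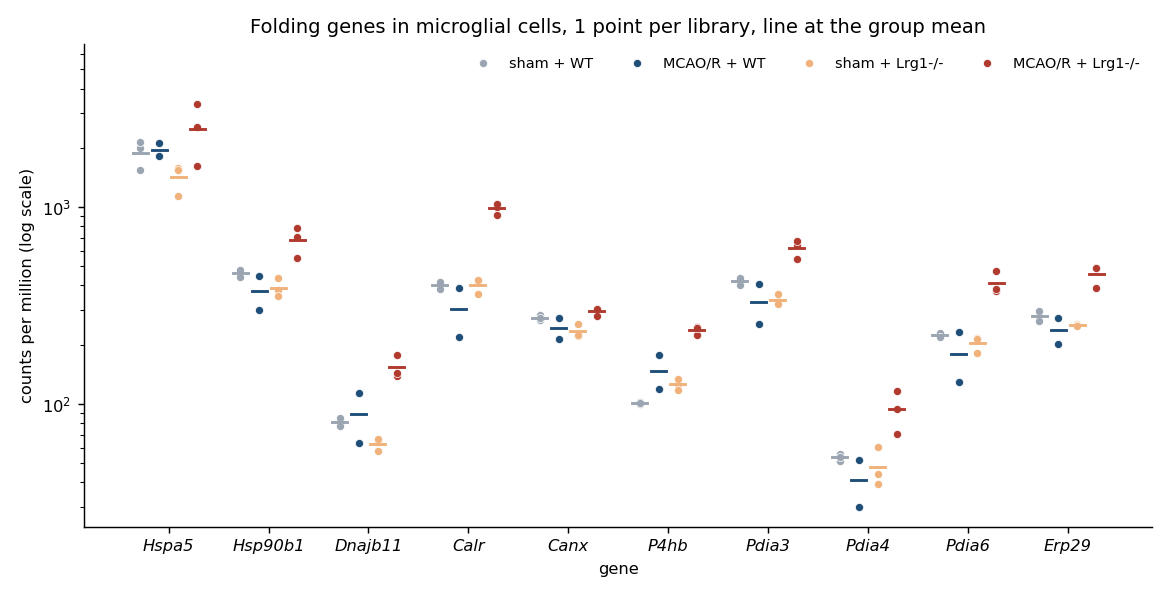
CPM (TMM scaling, log axis) of the 10 folding genes in microglial cells; each point is a library, coloured by group, and each short line a group mean (3, 2, 3 and 3 libraries). For Calr the 3 MCAO/R + Lrg1-/- libraries lie at 916 to 1033 and all other libraries at 220 to 429, whereas for Hspa5 the groups overlap.

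Other RNA of the microglial cells differed between the genotypes. Immediate early genes, which are induced while tissue is dissociated, summed to 39750 to 43228 CPM in the 5 WT libraries and to 15640 to 25548 in the 6 Lrg1-/- libraries, and haemoglobin transcripts to 17.5 to 20.5 and 7873 to 18891. Among the Lrg1-/- libraries, haemoglobin transcripts were at 13763 to 18891 CPM in sham and 7873 to 16409 in operated animals, and immediate early genes at 21164 to 25548 and 15640 to 21277. The microglial cells of the groups also came from different clusters: the cluster led by Hao1, Blnk and Spint1 held 94.8% of the MCAO/R + Lrg1-/- cells and 28.9% of the MCAO/R + WT cells, while a cluster led by Cep152 and Slc24a3 held 42.5% of the latter and 1.80% of the former. The part of these differences in the folding gene result was not tested.

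In macrophages 8 of 10 genes were called higher in MCAO/R + Lrg1-/-, where 16.2% of all genes were. Calr was at 321 and 151 CPM in MCAO/R + WT and 723, 859 and 941 in MCAO/R + Lrg1-/- (log2 fold change 1.83 ± 0.27, edgeR adjusted p = 0.00049). Pdia4 was at 46.0 and 24.2 against 101, 92.3 and 111 (1.50 ± 0.23, edgeR adjusted p = 0.00062) and Dnajb11 at 97.9 and 54.0 against 159, 224 and 198 (1.35 ± 0.25, adjusted p = 0.0017). The operated groups did not overlap for any of these, and MCAO/R + WT replicate 2 was again the lower WT library. Hspa5 did not follow: its 1565 and 1150 CPM in MCAO/R + WT overlapped the 1272, 1560 and 1126 of MCAO/R + Lrg1-/- (log2 fold change -0.04 ± 0.19, edgeR adjusted p = 0.90). Macrophages had 7 calls without MCAO/R + WT replicate 2 and 6 after thinning. Their immediate early genes summed to 33516 and 43101 CPM in MCAO/R + WT and to 7907 to 11889 in MCAO/R + Lrg1-/-. Macrophages came from different clusters too: those led by Arg1 and Cxcl3 and by Chil3 and Thbs1 held 42.2% and 24.4% of the MCAO/R + Lrg1-/- cells and 2.78% and 3.64% of the MCAO/R + WT cells, while the cluster led by Mrc1 and Cd36, with Cd163 and Lyve1, held 16.5% of the former and 83.5% of the latter. The part of either in the macrophage result was not tested.

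In the vessel wall, endothelial cells, pericytes and vascular smooth muscle cells had 6, 7 and 7 genes called higher, where 14.1%, 7.38% and 6.76% of all genes were. Endothelial Calr was at 215 and 158 CPM in MCAO/R + WT and 469, 492 and 440 in MCAO/R + Lrg1-/- (log2 fold change 1.32 ± 0.15, edgeR adjusted p = 0.00028), and endothelial Canx, its membrane-bound relative, was at 184 and 152 against 248, 271 and 230 (0.57 ± 0.12, adjusted p = 0.0052). These did not overlap. Endothelial Hspa5 (948 and 650 against 554, 802 and 652), Hsp90b1 (419 and 351 against 410, 486 and 407) and P4hb (159 and 150 against 143, 187 and 163) overlapped between the operated genotypes and were not called. The endothelial cluster led by Doc2b and Ctla2a held 89.7% of the MCAO/R + WT and 66.8% of the MCAO/R + Lrg1-/- cells, and that led by Ackr1 held 9.72% and 31.9%; the part of this was not tested.

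Pericyte Calr was at 181 and 154 CPM against 649, 498 and 538 (log2 fold change 1.74 ± 0.19, edgeR adjusted p = 0.00066) and pericyte Canx at 161 and 138 against 345, 252 and 252 (0.91 ± 0.18, adjusted p = 0.0069). Both genes were higher in every operated Lrg1-/- library than in either operated WT library. The pericyte markers summed to 9053 and 13180 CPM of plain totals in MCAO/R + WT and to 7871, 5951 and 4271 in MCAO/R + Lrg1-/-, and haemoglobin transcripts to 61.4 and 101 against 9184, 22890 and 21044; the part of either was not tested. In vascular smooth muscle cells, Pdia6 was at 53.5 and 47.2 against 239, 138 and 176 (1.87 ± 0.26, adjusted p = 0.0082), the largest log2 fold change of Pdia6 in any type, and Erp29 at 68.2 and 75.9 against 277, 134 and 217 (1.53 ± 0.30, adjusted p = 0.021). When MCAO/R + WT replicate 2 was left out, the counts of called genes were 2 in endothelial cells, 1 in pericytes and 0 in vascular smooth muscle cells, and without replicate 1 of that group they were 6, 4 and 0. Thinning to 1000 UMIs gave 7, 2 and 3 calls. The vascular smooth muscle cluster led by Gkn3 and Myl9 held 3.05% of the MCAO/R + WT and 39.5% of the MCAO/R + Lrg1-/- cells of that type. The markers of that type summed to 31791 and 31278 CPM of plain totals against 15026, 22476 and 19095, and the part of either was not tested.

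Oligodendrocytes, which make myelin, were the single type with Hspa5 called, and had 6 genes called in all (12.9% of all genes were). Hspa5 was at 305, 244 and 274 CPM in sham + WT, 293 and 272 in MCAO/R + WT, 325, 347 and 284 in sham + Lrg1-/- and 466, 552 and 537 in MCAO/R + Lrg1-/-. The operated Lrg1-/- libraries lay above all others, which overlapped (log2 fold change between operated genotypes 0.88 ± 0.13, edgeR adjusted p = 0.00097). Pdia6 was at 58.9 and 52.3 in MCAO/R + WT and 120, 145 and 140 in MCAO/R + Lrg1-/- (1.29 ± 0.12, adjusted p = 8.6e-05) and Calr at 141 and 113 against 347, 358 and 360 (1.49 ± 0.16, adjusted p = 0.00014). Here MCAO/R + WT lay below sham + WT, as described below. Canx, P4hb and Erp29 overlapped between operated genotypes and were not called. The count was 4 without MCAO/R + WT replicate 2, and after thinning 3. The median share of mitochondrial UMIs was 3.55 to 3.95% in WT oligodendrocytes and 5.79 to 9.22% in Lrg1-/- ones. A cluster led by Il33 and Klk6 held 45.2% of MCAO/R + Lrg1-/- oligodendrocytes against 10.7% of MCAO/R + WT ones. The oligodendrocyte markers summed to 36023 and 37919 CPM of plain totals in MCAO/R + WT and to 27109, 22329 and 19882 in MCAO/R + Lrg1-/-. The part of these differences was not tested.

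**Figure D3:**
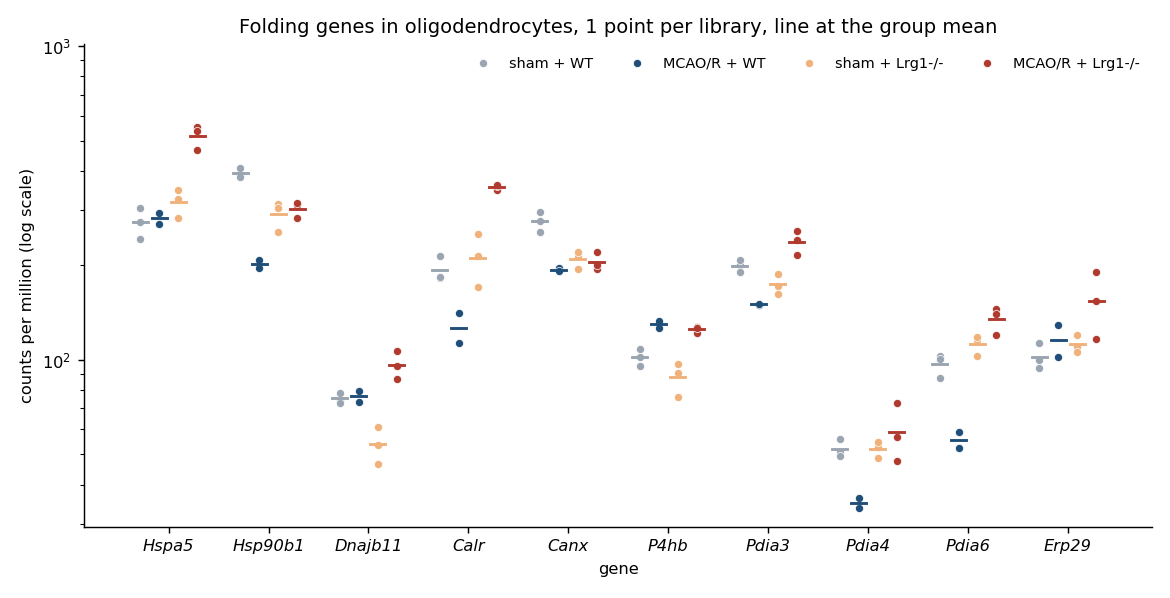
CPM (TMM scaling, log axis) of the 10 folding genes in oligodendrocytes, with 1 point per library and a short line at each group mean (3, 2, 3 and 3 libraries). MCAO/R + WT lies below sham + WT for Hsp90b1, Calr, Canx, Pdia3, Pdia4 and Pdia6, and the 3 MCAO/R + Lrg1-/- libraries of Hspa5 and Calr lie above all others.

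Neurons, choroid plexus epithelial cells, ciliated ependymal cells and astrocytes had 4, 4, 3 and 2 genes called, where 4.67%, 12.2%, 2.32% and 1.21% of all genes were called higher. Calr and Erp29 were called in all 4 of these types. Neuronal Calr was at 120 and 87.4 CPM in MCAO/R + WT and 640, 306 and 312 in MCAO/R + Lrg1-/- (log2 fold change 1.97 ± 0.30, edgeR adjusted p = 0.0026), the largest difference of any folding gene pair in this comparison, and its groups did not overlap. A neuronal sub-cluster led by Gm38505 and Adarb2, with a median of 3658 UMIs a cell, held 56.6% of the MCAO/R + Lrg1-/- neurons and 3.11% of the MCAO/R + WT neurons, and its part was not tested. In choroid plexus epithelial cells Calr was at 165 and 121 against 501, 517 and 393 (1.70 ± 0.25, adjusted p = 0.0023), overlapping the 458, 529 and 569 of sham + WT. MCAO/R + WT replicate 2 held 28 cells of this type, and the cluster led by Ttr, with a median of 2972 UMIs a cell, held 57.7% of the MCAO/R + WT and 77.7% of the MCAO/R + Lrg1-/- cells; the part of this was not tested. The astrocyte markers summed to 15588 and 17373 CPM of plain totals in MCAO/R + WT and to 7615, 7152 and 5242 in MCAO/R + Lrg1-/-. Those of ciliated ependymal cells summed to 6238 and 6927 against 5373, 4805 and 3763, and the part of either was not tested. Leaving out MCAO/R + WT replicate 2 gave 0, 2, 0 and 0 calls in these 4 types, and leaving out replicate 1 of that group gave 3, 2, 0 and 1. Astrocytes had 0 calls also without MCAO/R + Lrg1-/- replicate 2 or 5, 2 without sham + Lrg1-/- replicate 5 and 1 without any of the remaining libraries, and with the limit on mitochondrial UMIs at 10% choroid plexus epithelial cells had 0. With cells thinned to 1000 UMIs the 4 types had 2, 1, 0 and 1 calls, and neuronal Dnajb11, called with a log2 fold change of 0.84 (edgeR adjusted p = 0.033), was at -0.15.

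Neutrophils and neural progenitor cells had 0 genes called in either direction. Their libraries were 2 against 2, and 4 and 50 genes of the whole table were called higher in them by edgeR. Neutrophils had an unadjusted p under 0.05 for 8 of 10 folding genes, where 12.1% of all genes did, with Pdia4 at 8.53 and 9.09 CPM in MCAO/R + WT and 27.4 and 26.7 in MCAO/R + Lrg1-/- (log2 fold change 1.61). Neural progenitor cells had an unadjusted p under 0.05 for 4 of 10, where 14.4% of all genes did. Their Hspa5 was at 995 and 750 CPM in MCAO/R + WT and 448 and 465 in MCAO/R + Lrg1-/- (log2 fold change -0.93, edgeR adjusted p = 0.21), and Hspa5 and Dnajb11 (-0.31) in this type were the 2 pairs with every operated Lrg1-/- library below the operated WT libraries. Neural progenitor cells came from 2 sub-clusters. Over all libraries, that led by the neuron marker Rbfox3, with Neurod1 and Calb2, held 117 MCAO/R + WT and 39 MCAO/R + Lrg1-/- cells. The one led by Cenpf, with Top2a, held 147 and 28, and the part of this shift was not tested. DESeq2 called 0 in neutrophils and 1 in neural progenitor cells. In neutrophils 1 and 2 genes were called without MCAO/R + Lrg1-/- replicate 2 and replicate 5, fits in which 1 MCAO/R + Lrg1-/- library was assumed to vary like the 2 MCAO/R + WT libraries, the only source of the spread.

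The operation within Lrg1-/- animals, MCAO/R + Lrg1-/- against sham + Lrg1-/-, compared libraries of the same line and stated age, from animals whose sex is not given. Folding genes were called higher after the operation in 6 of 11 cell types: 9 of 10 in microglial cells (17.2% of all genes), 8 in macrophages (15.6%), 8 in endothelial cells (9.42%), 5 in oligodendrocytes (5.19%), 4 in pericytes (1.93%) and 2 in neurons (0.742%). In all 36 of 110 pairs were called higher and 0 lower, where 5.35% and 4.38% of all pairs were, with a median log2 fold change of 0.50. T cells, astrocytes, choroid plexus epithelial cells, ciliated ependymal cells and vascular smooth muscle cells had 0 genes called by edgeR. Of their 10 genes 6, 5, 1, 5 and 4 had an unadjusted p under 0.05. Of all genes 10.1%, 16.2%, 12.4%, 19.5% and 15.4% did. DESeq2 called 0, 0, 0, 3 and 3 folding genes in these types. Over all types DESeq2 called 47 higher and 0 lower, and 69 pairs had an unadjusted p under 0.05 in edgeR. In the single types 10.1% (T cells) to 41.4% (microglial cells) of all genes had such a p. This comparison shares its operated libraries with the comparison above, so that the results are not independent of each other.

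Microglial Hspa5 stood at 1586, 1549 and 1144 CPM in sham + Lrg1-/- and at 2558, 3325 and 1624 in MCAO/R + Lrg1-/- (log2 fold change 0.81 ± 0.22, edgeR adjusted p = 0.013), and the groups did not overlap. Microglial Dnajb11, its J-domain partner, went from 64.5, 66.4 and 57.6 to 140, 178 and 144 (1.29 ± 0.18, adjusted p = 0.00022) and microglial P4hb from 126, 118 and 135 to 224, 247 and 242 (0.92 ± 0.13, adjusted p = 0.00026). For all of these the operated libraries were the higher. In macrophages Dnajb11 rose most (65.6, 73.4 and 84.6 to 159, 224 and 198, log2 fold change 1.41 ± 0.23, adjusted p = 0.0011), while Hspa5 stayed within the spread (1291, 1349 and 1214 against 1272, 1560 and 1126). In endothelial cells P4hb rose from 86.0, 95.2 and 102 to 143, 187 and 163 (0.80 ± 0.12, adjusted p = 0.0017) and Calr from 258, 267 and 272 to 469, 492 and 440 (0.82 ± 0.13, adjusted p = 0.0022).

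The count of 36 ranged from 29 to 44 when any 1 library was left out. By type, macrophages had 5 calls without MCAO/R + Lrg1-/- replicate 2, and pericytes had 1 without that library or sham + Lrg1-/- replicate 2 and 2 without sham + Lrg1-/- replicate 1 or 5. Neurons had 0 without MCAO/R + Lrg1-/- replicate 5 or sham + Lrg1-/- replicate 1 or 2 and 1 without any sham + WT library, and vascular smooth muscle cells had 5 without MCAO/R + Lrg1-/- replicate 1. With cells thinned to 1000 UMIs it was 18, of which 8 were in microglial cells, 6 in endothelial cells, 3 in macrophages and 1 in oligodendrocytes. Haemoglobin transcripts spanned 1813 to 92462 CPM in the sham and 4051 to 45964 in the operated Lrg1-/- sums. Immediate early genes had a median of 12865 CPM in the sham sums (5320 to 36719) and 7947 in the operated sums (3637 to 24237), and the choroid plexus transcripts, in sums of other types, a median of 11453 (3617 to 39096) and 6357 (2420 to 54341).

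The cells behind these operation results in Lrg1-/- animals also came from different clusters. Of the microglial cells, the cluster led by Ifih1 and Ifnb1, with P2ry12, held 67.9% in sham + Lrg1-/- and 0.998% in MCAO/R + Lrg1-/-, and the one led by Hao1 held 28.4% and 94.8%. Of the macrophages, the clusters led by Arg1 and by Chil3 held 0 and 1 of the 290 sham + Lrg1-/- cells and 42.2% and 24.4% of the operated ones, and that led by Mrc1 held 76.9% and 16.5%. Of the endothelial cells, the cluster led by Hmcn1 and Cxcl12 held 55.7% in sham and 1.29% in operated Lrg1-/- animals, and that led by Doc2b and Ctla2a held 8.28% and 66.8%. Of the oligodendrocytes, the cluster led by Il33 and Klk6 held 12.2% in sham and 45.2% in operated Lrg1-/- animals, and the median share of mitochondrial UMIs was 5.79 to 6.57% in the sham and 7.77 to 9.22% in the operated libraries. Of the neurons, the sub-cluster led by Gm38505 and Adarb2 held 31.9% and 56.6%. The part of these shifts, and of the other RNA, in the folding gene results was not tested.

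The operation within WT animals, MCAO/R + WT against sham + WT, gave few calls. P4hb, protein disulphide isomerase, was higher in endothelial cells and in microglial cells, and 6 folding genes were lower in oligodendrocytes and 2 in choroid plexus epithelial cells. In all 2 of 110 pairs were called higher and 8 lower, where 3.88% and 3.6% of all pairs were, and the median log2 fold change was -0.15. Of the pairs 30 had an unadjusted p under 0.05 in edgeR. In the single types 5.75% (neural progenitor cells) to 33.8% (microglial cells) of all genes had such a p. Calr was above 0 in 0 of 11 types, with a median of -0.41 and such a p in 7, while P4hb and Dnajb11 were above 0 in 10 of 11 each. In endothelial cells P4hb was at 86.6, 86.3 and 97.1 CPM in sham + WT and 159 and 150 in MCAO/R + WT (log2 fold change 0.78 ± 0.13, edgeR adjusted p = 0.0019, where 6.86% of genes were called higher). In microglial cells it was at 103, 99.7 and 101 against 177 and 119 (0.55 ± 0.14, adjusted p = 0.013, where 11.7% were). In both types the operated WT libraries lay above every sham + WT library. The endothelial cluster led by Hmcn1 and Cxcl12 held 75.1% of the sham + WT and 0.556% of the MCAO/R + WT cells, that led by Doc2b and Ctla2a 5.75% and 89.7%, and the microglial cluster led by Ifih1 and Ifnb1 93.7% and 16.9%; the part of these shifts was not tested.

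The lower calls were in oligodendrocytes, where 10.8% of all genes were called lower, and in choroid plexus epithelial cells, where 0.375% were. Oligodendrocyte Hsp90b1 was at 387, 382 and 410 CPM in sham + WT and 208 and 196 in MCAO/R + WT (log2 fold change -0.96 ± 0.11, edgeR adjusted p = 8.3e-05), and Pdia6 at 102, 87.1 and 100 against 58.9 and 52.3 (-0.80 ± 0.12, adjusted p = 0.00049). Canx, Pdia4, Calr and Pdia3 were also called lower there, with log2 fold changes of -0.51, -0.57, -0.61 and -0.41, and none of the 6 genes overlapped between groups. Oligodendrocyte P4hb had the opposite sign (0.35) and a change under the limit on size. In these oligodendrocytes the 10 marker genes of the type summed to 54258 to 56686 CPM of plain totals in sham + WT and to 36023 and 37919 in MCAO/R + WT; the part of this shift was not tested. Choroid plexus Calr was at 458, 529 and 569 against 165 and 121 (-1.85 ± 0.25, adjusted p = 0.0068) and choroid plexus Pdia4 at 78.7, 80.2 and 85.3 against 39.4 and 36.0 (-1.10 ± 0.24, adjusted p = 0.047).

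These WT counts were small and moved with single libraries. With MCAO/R + WT replicate 2 left out the lower calls were 3, all in oligodendrocytes. With sham + WT replicate 3 left out they were 4, of which 3 were in oligodendrocytes. With MCAO/R + WT replicate 1 left out the microglial P4hb call was lost, leaving 1 higher call, and the lower calls were 10, of which 5 were in microglial cells and 4 in oligodendrocytes. Choroid plexus epithelial cells had 4 lower calls without MCAO/R + Lrg1-/- replicate 1 or sham + Lrg1-/- replicate 5 and 0 or 1 without any other single library but MCAO/R + Lrg1-/- replicate 5. With plain library totals in place of TMM scaling 4 pairs were called higher, and with cells thinned to 1000 UMIs 4 were called lower.

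**Figure D4:**
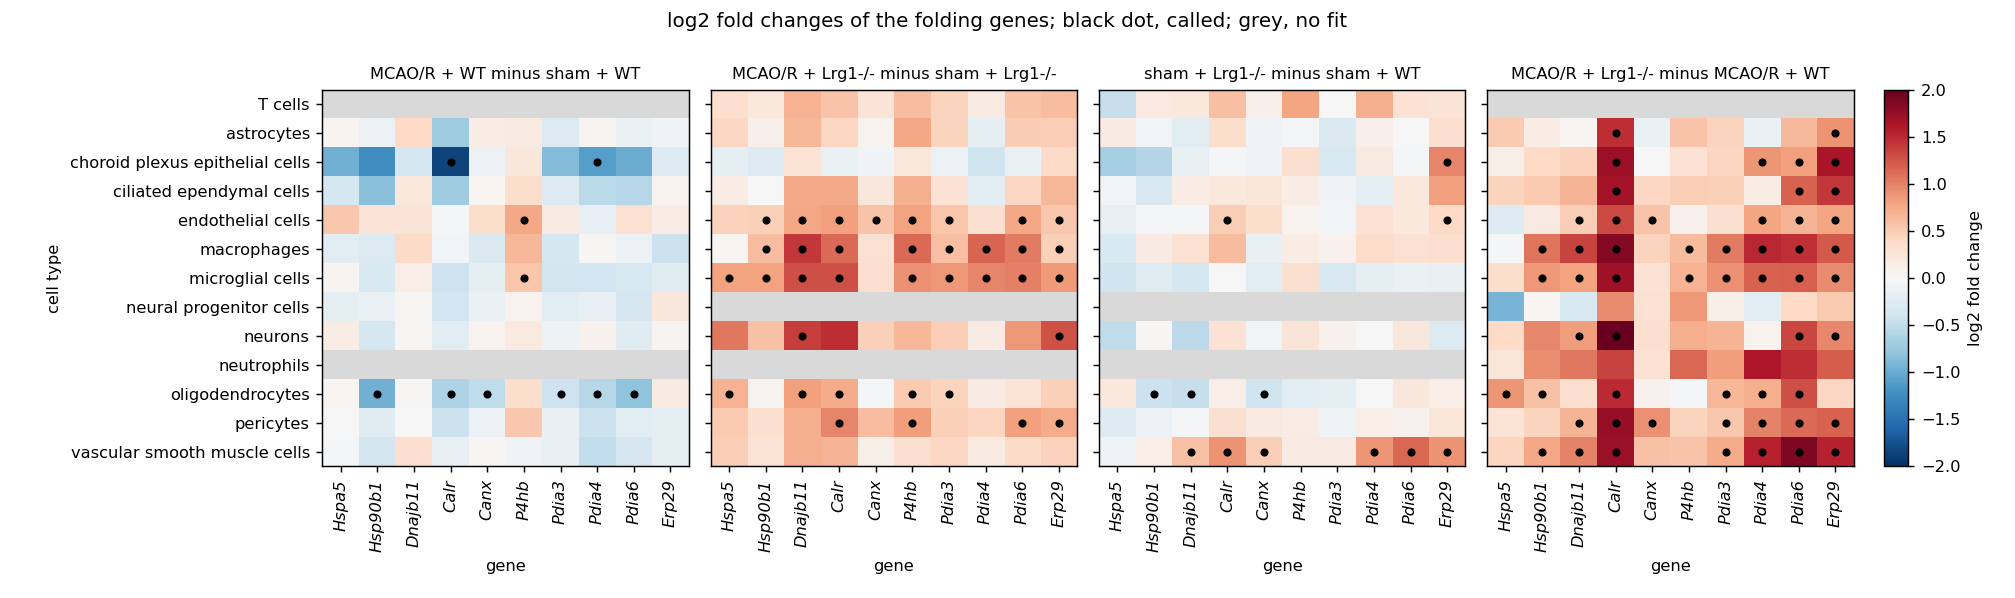
log2 fold changes (colour, from -2 to 2) of the 10 folding genes in 13 cell types for the 4 comparisons between groups; a black dot marks a called pair and grey a type with too few libraries. The last comparison holds 55 called pairs, all higher in MCAO/R + Lrg1-/-, and the operation within WT animals holds 2 higher and 8 lower.

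The test of whether the operation moved a gene differently in the genotypes, the interaction of genotype and surgery, called 12 of 100 pairs, all with the larger log2 fold change in Lrg1-/-, where 0.728% of all pairs were called in this direction and 0.702% in the other. They were 7 genes in microglial cells (4.56% of all genes) and 5 in oligodendrocytes (0.698%). In microglial cells Calr changed by -0.41 on the log2 scale in WT, within the spread, and by 1.29 in Lrg1-/- animals, and the interaction was 1.69 ± 0.25 (edgeR adjusted p = 0.0023). In oligodendrocytes Hsp90b1 changed by -0.96 in WT and by 0.05, within the spread, in Lrg1-/- animals, and the interaction was 1.01 ± 0.15 (adjusted p = 0.010). For 96 of 100 pairs the interaction was above 0, with a median of 0.65. No pair was called in the other direction by edgeR or DESeq2, and 61 had an unadjusted p under 0.05 in edgeR. In the single types 5.56% (ciliated ependymal cells) to 24.8% (microglial cells) of all genes had such a p.

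No interaction of Hspa5, Canx or P4hb was called by edgeR. Microglial P4hb, higher after the operation in both genotypes (0.55 in WT and 0.92 in Lrg1-/-), had an interaction of 0.37 ± 0.20 (edgeR adjusted p = 0.26). Macrophages, where the comparison of operated genotypes had 8 calls, had an interaction of 1.20 ± 0.35 for Calr (adjusted p = 0.099) and 0 genes called, while DESeq2 called 5. The interaction was called without MCAO/R + WT replicate 2 for 5 pairs, all in microglial cells, without replicate 1 of that group for 20, with DESeq2 for 27 and without a filter on low counts for 23.

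Sham-operated genotypes, sham + Lrg1-/- against sham + WT, differed for fewer folding genes. Vascular smooth muscle cells had 6 genes higher in Lrg1-/- (12.7% of all genes were), endothelial cells 2 (9.8%) and choroid plexus epithelial cells 1 (10.2%), and oligodendrocytes had 3 lower (5.37%). In all 9 of 110 pairs were called higher and 3 lower, where 6.97% and 6.72% of all pairs were. In vascular smooth muscle cells Pdia6 was at 73.6, 57.5 and 59.5 CPM in sham + WT and 123, 149 and 150 in sham + Lrg1-/- (log2 fold change 1.14 ± 0.22, edgeR adjusted p = 0.014), and Calr at 143, 128 and 136 against 237, 260 and 259 (0.89 ± 0.19, adjusted p = 0.016). Neither gene overlapped between the sham groups. The vascular smooth muscle cluster led by Gkn3 and Myl9 held 21.3% of the sham + WT and 64.0% of the sham + Lrg1-/- cells, and the one led by Crispld2 and Myh11 held 78.7% and 36.0%. The markers of this type summed to 36616 to 38166 CPM of plain totals in sham + WT and to 25440, 27007 and 14608 in sham + Lrg1-/-. In endothelial cells the cluster led by Hmcn1 held 75.1% of the sham + WT and 55.7% of the sham + Lrg1-/- cells and that led by Ackr1 19.2% and 36.0%, and in choroid plexus epithelial cells the cluster led by Ttr held 50.3% and 70.2%. The part of these differences was not tested. Erp29 was higher in choroid plexus epithelial cells (75.2, 88.3 and 67.8 against 132, 162 and 163, log2 fold change 0.98 ± 0.19, adjusted p = 0.0057), and Hsp90b1, Dnajb11 and Canx were lower in oligodendrocytes (-0.43, -0.46 and -0.39).

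In microglial cells, where the operated genotypes differed most clearly for Calr, its sham levels were 406, 415 and 385 against 417, 429 and 364 (log2 fold change 0.01 ± 0.16). Between sham genotypes 0 folding genes were called in this type by edgeR or DESeq2. The sham levels were not alike for every gene: 2 of 10 log2 fold changes were above 0, and the median was -0.21, beside -0.02 for all genes. Pdia3 was at 434, 434 and 402 CPM in sham + WT against 333, 362 and 320 in sham + Lrg1-/-, and Dnajb11 at 79.8, 84.8 and 77.6 against 64.5, 66.4 and 57.6. P4hb went the other way (103, 99.7 and 101 against 126, 118 and 135). Of the folding genes 2 had an unadjusted p under 0.05 in edgeR, where 40.1% of all genes did. The sham counts depended on single libraries. Without sham + Lrg1-/- replicate 2, sham + Lrg1-/- replicate 5, sham + WT replicate 1, 2 or 3 the higher calls were 2, 2, 5, 1 and 2. The lower calls were 0 without sham + Lrg1-/- replicate 5 and without sham + WT replicate 2 or 3. Without a filter on low counts 7 pairs were called lower, with plain library totals 5, and with cells thinned to 1000 UMIs 0. With a replicate block 1 of the 12 sham calls was kept, and 11 had the same sign but were not called. The change from TMM scaling to plain totals moved the median log2 fold change of all genes by up to -0.25 (choroid plexus epithelial cells, operated genotypes) and 0.18 (microglial cells, sham genotypes), and past 0.1 in 15 of the 55 comparisons of a cell type.

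Other genes of the endoplasmic reticulum were followed on 6 lists of 93 genes in all, of which 92 were tested. Between operated genotypes 169 of 1052 pairs were called higher in MCAO/R + Lrg1-/- and 53 lower, with a median log2 fold change of 0.21, beside 8.09% and 7.34% of all pairs of the whole table. The machinery that moves new proteins into the reticulum and cleaves their signal peptides (Sec61, Ssr and Spcs genes among others) had 55 of 204 pairs higher and 9 lower (median 0.45). N-glycan trimming genes had 19 of 106 higher and 1 lower, other luminal chaperones and folding enzymes 68 of 373 higher and 21 lower, and the degradation genes 15 of 218 higher and 10 lower. The unfolded protein response sensors and transcription factors had 5 of 120 pairs higher and 11 lower (median -0.14). The totals without MCAO/R + WT replicate 2 were 41 higher and 25 lower, and without replicate 1 of that group 29 were lower. With cells thinned to 1000 UMIs they were 62 higher and 19 lower.

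Among these sensors, Atf6 in microglial cells was at 206, 198 and 197 CPM in sham + WT, 453 and 463 in MCAO/R + WT, 319, 317 and 282 in sham + Lrg1-/- and 226, 296 and 288 in MCAO/R + Lrg1-/-. The operated WT libraries stood above all others, and the operated Lrg1-/- libraries overlapped the sham libraries of their line. Its log2 fold change was 1.19 ± 0.12 for the operation in WT (edgeR adjusted p = 1.4e-05) and -0.76 ± 0.12 between operated genotypes (adjusted p = 0.00076), and its interaction was -1.37 ± 0.17 (adjusted p = 0.00099). Atf6 was also lower in MCAO/R + Lrg1-/- than in MCAO/R + WT macrophages (-1.66), choroid plexus epithelial cells (-1.57) and endothelial cells (-0.82). Eif2ak3 was lower in choroid plexus epithelial cells, endothelial cells, microglial cells, oligodendrocytes and pericytes (-1.33 to -0.52), Ern1 in endothelial cells (-0.97) and Creb3l2 in microglial cells (-0.49). The 5 higher calls were Atf6b in endothelial cells (0.59) and macrophages (0.62) and Atf4 (0.57), Ern1 (0.55) and Xbp1 (0.78) in oligodendrocytes.

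In this comparison Sdf2l1 in vascular smooth muscle cells and Kdelr3 in oligodendrocytes had larger log2 fold changes, without regard to sign, than any folding gene pair. Sdf2l1, a luminal partner of Hspa5, was in vascular smooth muscle cells at 8.70 and 4.83 CPM in MCAO/R + WT and 160, 51.6 and 81.0 in MCAO/R + Lrg1-/- (log2 fold change 3.85 ± 0.55, edgeR adjusted p = 0.0096), with 12.5, 5.55 and 6.96 in sham + WT and 30.8, 34.8 and 46.8 in sham + Lrg1-/-. Both Lrg1-/- groups lay above both WT groups. Creld2 was in macrophages at 21.3 and 14.9 against 44.8, 79.7 and 65.2 (1.82 ± 0.32, adjusted p = 0.0012). Mogs, a glucosidase of N-glycan trimming, in vascular smooth muscle cells (1.82) and Derl3 in microglial cells (1.78, at under 1 CPM in every group) were the next higher calls. Kdelr3 in oligodendrocytes (-2.52), Tmx4 in microglial cells (-1.55) and Dnajb9, another J-domain partner of Hspa5, in macrophages (-1.48) were lower.

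In the remaining comparisons of the 6 lists, the operation in Lrg1-/- animals gave 136 of 967 pairs higher and 6 lower, where 5.35% and 4.38% of all pairs were. The calls were led by Fkbp11 in endothelial cells (2.63), Fkbp10 in microglial cells (2.23), Creld2 in macrophages (2.21) and Ern1 in pericytes (1.89). Tmx4 and Atf6 in macrophages (-1.15 and -1.03) and Sec62 and Sec11c in oligodendrocytes (-0.56 and -0.52) were lower. Of the sensors, Ern1 was also higher in endothelial cells, macrophages and oligodendrocytes (0.83 to 0.98), Xbp1 in endothelial cells (0.99) and Atf6b in microglial cells (0.53). With cells thinned to 1000 UMIs 60 pairs were higher.

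The operation in WT animals gave 50 of 974 pairs higher and 18 lower, where 3.88% and 3.6% of all pairs were, and all 10 calls among the 110 pairs of the sensor and transcription factor list were higher. Xbp1 in endothelial cells was at 81.8, 94.0 and 81.0 CPM in sham + WT and 287 and 191 in MCAO/R + WT (1.48 ± 0.19, edgeR adjusted p = 0.00030), and Kdelr3 in oligodendrocytes at 1.14, 1.24 and 1.21 against 10.1 and 12.1 (3.20 ± 0.37, adjusted p = 6.5e-05). In both, the operated WT libraries lay apart from sham. Fkbp10 and Fkbp14 in endothelial cells (1.72 and 1.38) were also higher, and Serpinh1 and Sdf2l1 in choroid plexus epithelial cells (-1.76 and -1.67), Sec11c in oligodendrocytes (-1.42) and Fkbp7 in microglial cells (-0.92) lower. The other sensor calls were Atf6 in endothelial cells and oligodendrocytes (0.90 and 0.64), Atf4 in endothelial cells, microglial cells and oligodendrocytes (0.54, 0.70 and 0.65), Eif2ak3 and Ern1 in endothelial cells (0.46 and 0.88) and Creb3l2 in microglial cells (0.46). The 50 became 20 without MCAO/R + WT replicate 1, 29 without sham + WT replicate 2 and 27 without sham + WT replicate 3, and the 18 became 7, 10 and 8 without MCAO/R + WT replicate 2, sham + WT replicate 2 and sham + WT replicate 3.

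The interaction was called for 27 of 887 listed pairs upward, led by Sdf2l1 (2.10), Creld2 (1.97), Sec11c (1.31) and Fkbp2 (1.22) in microglial cells, and for 3 downward: Atf6 in microglial cells, Sec62 in oligodendrocytes (-1.09) and Ssr3 in endothelial cells (-0.80). The 27 became 42 without MCAO/R + WT replicate 1, 13 without its replicate 2, 41 without MCAO/R + Lrg1-/- replicate 1, 17 without sham + Lrg1-/- replicate 1, 12 without sham + Lrg1-/- replicate 2 and 17 without sham + WT replicate 2. The 3 became 1 without MCAO/R + WT replicate 2 and without sham + Lrg1-/- replicate 2. Of all pairs, 0.728% were called upward and 0.702% downward. Between sham genotypes 59 of 967 pairs were higher in Lrg1-/- and 55 lower, where 6.97% and 6.72% of all pairs were.

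Named by the same rule, Sdf2l1 in vascular smooth muscle cells (2.17), Selenom and Txndc5 in T cells (1.69 and 1.52) and Clgn in endothelial cells (1.30) were higher in sham + Lrg1-/- than in sham + WT. Ern1 in pericytes (-1.78), Fkbp10 in astrocytes (-1.39), Tmx4 in pericytes (-1.15) and Sec63 in T cells (-1.14) were lower. Of the sensors, Atf6 was higher in microglial cells (0.61), Xbp1 in endothelial and vascular smooth muscle cells (0.52 and 0.60) and Atf4 and Ddit3 in oligodendrocytes (1.07 and 0.53), while Ern1 was lower in endothelial and microglial cells (-0.93 and -0.53) and Eif2ak3 in endothelial cells (-0.58). Leaving out sham + Lrg1-/- replicate 2 or 5, or sham + WT replicate 1, 2 or 3, gave 26, 18, 29, 15 and 19 higher calls, and 32, 31 and 29 lower calls came without sham + Lrg1-/- replicate 2 and sham + WT replicates 2 and 3.

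**Figure D5:**
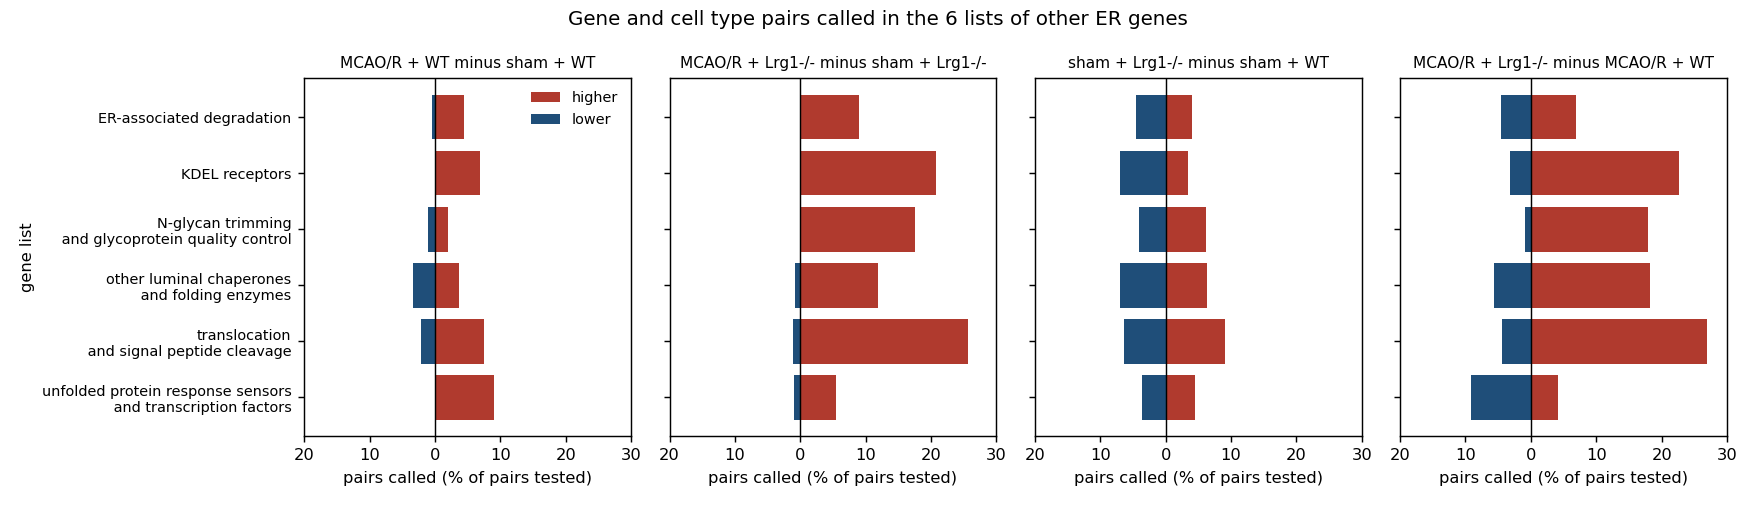
Share of gene and cell type pairs called higher (red, to the right) and lower (blue, to the left), in % of the pairs tested, for the 6 lists of other endoplasmic reticulum genes in the 4 comparisons between groups. Between operated genotypes the translocation list has 55 of 204 pairs higher, and the sensor and transcription factor list has 11 of 120 lower against 5 higher. Of all pairs of the whole table, 8.09% were called higher and 7.34% lower in this comparison.

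Across 152 library and cell type sums of all 16 named types, the 11 sums of the class named red blood cells included, the level of each folding gene was set against the mean of the other 9 (Pearson's r on standardised log2(CPM + 1) of plain totals, a description, since the sums share libraries and depth). Pdia3 (r = 0.902), Pdia6 (0.888) and Calr (0.863) followed the others most closely, and Hspa5 (0.609), Pdia4 (0.579) and P4hb (0.568) least. Among 10463 genes outside the lists with a mean of at least 10 CPM, Ddost and Rpn2, subunits of the oligosaccharyltransferase that attaches N-glycans, were the most like the mean of the folding genes (r = 0.797 and 0.780). Tex261 (0.751), Mydgf, a secreted growth factor (0.741), and Tmed9, a cargo receptor of early secretory vesicles (0.737), came next. Without the red blood cell class, a choice made after seeing the data, the 141 sums gave 0.896 for Pdia3, 0.886 for Pdia6 and 0.868 for Calr, 0.629 for Hspa5, 0.550 for Pdia4 and 0.582 for P4hb, and the same 5 genes outside the lists came first (r = 0.705 to 0.773).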

How the data were processed

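Single-cell RNA-seq of 11 mouse brain libraries was analysed from the raw UMI counts per gene and barcode that the authors deposited. Matrix headers name Cell Ranger 7.0.1, while the published methods name another version of it. The submitters' notes name Cell Ranger, STAR and mm10. Filtered cells (2000 variable genes, 15 components, 3 nearest neighbours from each library, resolution 1.0) were clustered with leidenalg 0.10.2 and named from marker genes. Doublets were removed by simulated scores. Counts were summed per library and cell type (at least 20 cells) and tested with edgeR 4.0.16 (quasi-likelihood, TMM scaling, all groups in 1 fit per type, Benjamini-Hochberg adjustment over all genes). Alternatives were DESeq2 1.42.0, plain totals, no low-count filter, doublets kept, 10% mitochondrial limit, thinning, a replicate block, and each library left out. Errors are SE of the fit or SD over libraries. Depth was 37159497 to 171813031 UMIs per library.

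The 10 folding genes and all lists were chosen with earlier results of these data known. All 10 are described. From the lists, the 4 called genes of each direction with the largest change and no overlap, and every called sensor or transcription factor, are named. The class called red blood cells was left out of levels and comparisons after its values were seen, and the correlations are given with and without it. Libraries of a group are separate mice, and p-values measure the spread between them. The edgeR test was run on simulated counts of endothelial cells, with a fixed spread for all genes and changed genes in MCAO/R + WT only. These counts held no shift of cell clusters or of other RNA, so that the check does not cover such shifts. Whether intronic reads were counted is not given in the sources used here.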

Additional observations from a re-analysis of the deposited data

Results flagged for a closer look

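Each result here is an interaction of genotype and surgery: the log2 fold change after the operation was higher in Lrg1-/- than in WT animals by edgeR's test of the difference itself, and values are differences of log2 fold changes. In microglial cells they were Calr (1.69), Pdia4 (1.37), Pdia6 (1.33), Pdia3 (1.24), Dnajb11 (1.15), Hsp90b1 (1.10) and Erp29 (1.09). In oligodendrocytes they were Calr (1.36), Pdia6 (1.07), Hsp90b1 (1.01), Pdia3 (0.86) and Dnajb11 (0.80). In oligodendrocytes Calr, Hsp90b1, Pdia3 and Pdia6 were called lower after the operation in WT, and Calr, Pdia3 and Dnajb11 were called higher after it in Lrg1-/- animals. Groups of 2 or 3 libraries are too small for the check for a library far from the others.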

How the results depend on the processing

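DESeq2 called 62, 47, 3 and 11 folding gene pairs higher where edgeR called 55, 36, 2 and 9 (operated genotypes, operation in Lrg1-/-, operation in WT, sham genotypes), and 27 against 12 for the interaction. Doublets kept, the 10% mitochondrial limit and, for microglial cells, the addition of the unnamed sub-clusters beside them (chosen after seeing the data) moved none of the counts over all types by more than 1.5 times. With 1 library left out, folding gene pairs called higher and lower ranged from 20 to 56 and 0 to 0 between operated genotypes, 29 to 44 and 0 to 0 for the operation in Lrg1-/-, 1 to 3 and 3 to 10 for the operation in WT, 5 to 20 and 0 to 0 for the interaction, and 1 to 10 and 0 to 4 between sham genotypes. For the 6 lists these were 41 to 179 and 25 to 59, 94 to 175 and 5 to 9, 20 to 57 and 7 to 23, 12 to 42 and 1 to 4, and 15 to 79 and 29 to 72. Thinning to 1000 UMIs gave 33 folding gene pairs higher between operated genotypes, 18 for the operation in Lrg1-/-, 4 lower for that in WT and 0 lower between sham genotypes, and in the lists 62 higher and 19 lower between operated genotypes, 60 higher for the operation in Lrg1-/-, 30 higher and 10 lower for that in WT, 1 lower for the interaction, and 24 higher and 25 lower between sham genotypes. It turned the sign of Dnajb11 in neurons between operated genotypes (-0.15). Plain totals gave 4 higher for the operation in WT and 5 lower between sham genotypes. No low-count filter gave 1 lower between operated genotypes, 23 higher for the interaction and 7 lower between sham genotypes, and in the lists 46 and 5 for the interaction and 88 lower between sham genotypes. DESeq2 called 47 and 8 listed pairs for the interaction. The cause was not tested, beyond fewer UMIs in thinned cells and fewer libraries in fits with 1 left out.

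The replicate numbers are shared between groups but name different mice. The deviations of same-numbered sham and operated Lrg1-/- libraries had median correlations of -0.09, 0.09 and 0.10 over 9 cell types, and not every library correlated best with its own number, so that the numbers were not taken to pair the samples. With a replicate block, folding gene pairs called higher were 45 between operated genotypes, 32 for the operation in Lrg1-/-, 1 for that in WT (4 lower), 11 for the interaction and 1 between sham genotypes (0 lower), and in the lists 112, 20 and 6 lower (operation in WT), 15 and 1 lower (interaction), and 10 and 24 lower (sham genotypes).

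Precision was limited by 2 MCAO/R + WT libraries, by types of under 100 cells in some libraries, and by shallower Lrg1-/- cells. Counting error is covered by the tests, whereas age, source and processing of the lines, and possible differences in sex and substrain, are not.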
